A study of Mus musculus with 7 samples.

Results

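The regions described here are 536 peaks of precipitated RNA that lie in exons. They were taken from the authors' short list of 10043 peaks, of which they make up 5.34%, by the annotation of their own strand. A peak was counted as exonic when the largest share of its bases fell in coding sequence (CDS), an untranslated region (UTR) or an exon of a noncoding transcript in GENCODE M21 on the mouse build mm10. Precedence ran from CDS over 3′ UTR, 5′ UTR and noncoding exon to intron. The exons of mRNAs held 271 peaks from 247 genes, with 162 peaks in CDS, 104 in 3′ UTRs and 5 in 5′ UTRs. Noncoding exons held the other 265 peaks, from 244 genes. Most of the short list lay elsewhere, with 5570 peaks in introns, 2560 between genes and 1377 antisense to a gene. The whole table held 303889 features, of which 192964 passed the filter on low counts, and all 536 exonic peaks passed it.

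RNA was precipitated with an antibody to EZH2 from mouse embryonic stem cells and sequenced (RIP-seq), and the title of the series states that this antibody also recognises SAFB. All 7 libraries came from 1 male CAST/B6 line that carries a recombinase-mediated cassette exchange (RMCE) site at Rosa26, grown in 15% serum, and every culture received doxycycline over 3 days, with no statement of what it induces. Wild type (WT, n = 3) was the parental line (replicate 1, matched to its column by the name of the unmodified line, an inference) and clones 20 and 44, the knockout of Ezh2 (EZH2 KO, n = 2) was clones 12 and 19, and the line lacking both Safb and Safb2 (SAFB DKO, n = 2) was clones 13 and 4. The p-values therefore measure the spread between single clones and their parental line, and a property of a clone cannot be told apart from its genotype where the clones of a group share it. A feature's count is a level in the precipitate: fewer cells holding an RNA and less of it per cell cannot be told apart. No library of input RNA was used, so a change in the abundance of an RNA cannot be told apart from a change in its precipitation.

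EZH2 is the catalytic subunit of Polycomb repressive complex 2, which methylates histone H3. SAFB and its paralog SAFB2 are abundant nuclear proteins that bind chromatin and RNA and are known for a preference for purine-rich RNA. Exons are the parts of a transcript kept after splicing, whereas most nuclear RNA of a long gene is intron, so a peak in an exon can come from the spliced RNA, from its unspliced precursor or from both.

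The sequences below show the purine-rich stretch GAAGA in peaks that the results turn on. Each is a 30-base window of the annotated transcript, read 5′ to 3′ on the strand of the RNA and written as DNA, in mm10, with each match to GAAGA in capitals. Rtn4 lies at chr11:29706582-29706611 (+), Etl4 at chr2:20806613-20806642 (+), Macf1 at chr4:123471294-123471323 (-), and Naca at chr10:128042580-128042609 (+), all in CDS. The 3′ UTR windows are 2610008E11Rik at chr10:79065602-79065631 (-) and Uvssa at chr5:33417499-33417528 (+). The Zswim9 peak is classed as 5′ UTR, by 43.8% of its bases. Its window at chr7:13276742-13276771 (-) lies outside the annotated first exon (chr7:13277146-13278144) and was not classed by itself. The noncoding windows are Malat1 at chr19:5801890-5801919 (-), Kcnq1ot1 at chr7:143252446-143252475 (-), Gm42461 at chr5:49943923-49943952 (-) and Gm37363 at chr1:3376401-3376430 (-).
Rtn4: agaaggaactattGAAGAaactttaaatga
Etl4: agGAAGAgGAAGAggatgaaaacGAAGAct
Macf1: acacaGAAGAagggtcctctGAAGAtagag
Naca: gattcctactcccGAAGAtgctgttactat
2610008E11Rik: aggcaggtatgGAAGAAGAggctttgttaa
Uvssa: ctGAAGAgaggaaaaaggacaagGAAGAca
Zswim9: tgtGAAGAaagccataagaaagGAAGAtat
Malat1: acGAAGAAGAcatacaggaaggtGAAGAaa
Kcnq1ot1: cagagtaGAAGAcaggaaaGAAGAaggtta
Gm42461: cacagtaaaaaGAAGAAGAaaaaacctgca
Gm37363: acttgGAAGAggaatcatgcaGAAGAtaga

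The Malat1 peak held 19 matches to GAAGA in 1854 exonic bases, or 10.2 per 1000 bases. The Rtn4 peak held 12 (5.30 per 1000), the Macf1 peak 19 (3.68 per 1000) and the Naca peak 3 (0.872 per 1000), so strong peaks differed widely in this count. Of the mRNA exon peaks 86.3% held a match on their strand, with a median of 2.80 per 1000 bases, and of the noncoding exon peaks 88.7% did, with a median of 3.4. The share depends on length, and it was therefore read over intervals of at least 1000 bases. There 95.1% of 184 mRNA exon peaks and 92.1% of 7288 reference features in mRNA exons held a match, with medians of 2.88 and 1.95 per 1000 bases. Reference features are the tested features that the authors left out of their filtered peak list. Of those 7288, 4498 lie in 3′ UTRs, so the pooled medians mix classes. Within CDS the medians were 2.89 in peaks of any length and 2.63 in reference features of at least 1000 bases. Within 3′ UTRs they were 2.78 and 1.72. Among noncoding exons of that length, 96.6% of 177 peaks and 92.5% of 562 reference features held one, with medians of 3.39 and 2.62.

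The share of base A also differed between peaks and reference features. The peaks in mRNA exons had 31.5% A over all their exonic bases, against 25.6% in reference features, 25.1% in reference features of at least 1000 bases and 28% in reference features of the same genes. In CDS the share was 31.7% against 26.5%, in 3′ UTRs 31.3% against 25%, and in noncoding exons 31.5% against 27.5%. For GAAGA, peaks in 3′ UTRs had 3.09 per 1000 bases against 1.96 in reference 3′ UTRs. In CDS the peaks had 3.45 against 3.65 in all reference features and 3.17 in those of at least 1000 bases, so the sign of that difference depends on the lengths compared. Runs of GGGG were fewer in the peaks, at 2.56 per 1000 bases in mRNA exons against 4.20 in the reference. Reference features of the same genes had 3.23 matches to GAAGA per 1000 bases in mRNA exons, where the peaks had 3.33. In CDS they had 3.87, in 3′ UTRs 2.44, and in noncoding exons 3.02 against 4.23 in the peaks. Their GGGG runs stood at 3.27 in mRNA exons and at 2.66 in CDS (peaks 2.55). Their share of A in noncoding exons was 30.1%. Motifs were searched on the peak strand only, overlaps included, and these values describe the windows without a test.

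**Figure D1:**
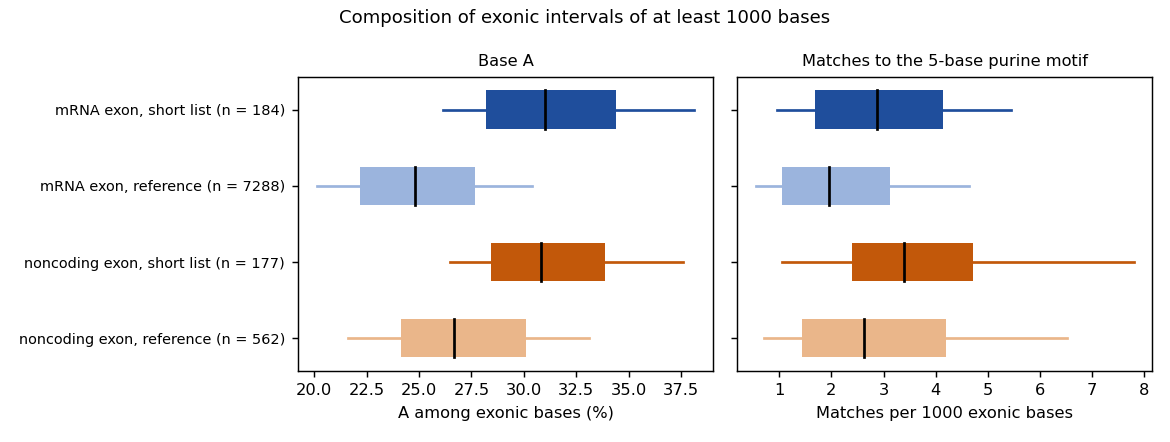
Share of base A among exonic bases (left, percent) and matches to the 5-base purine motif per 1000 exonic bases (right) in short-list exon peaks and reference exonic features of at least 1000 bases. Boxes span the 25th to 75th percentile, whiskers the 10th to 90th, and black lines mark the medians. Of the 7288 reference features in mRNA exons 4498 lie in 3′ UTRs, so the mRNA sets differ in their mix of classes. The median A content was 31.0% in mRNA exon peaks against 24.8% in their reference, and 30.8% against 26.7% in noncoding exons.

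The exons themselves were long. The median exon holding an mRNA peak measured 2551 bases, against 189 bases for reference features, and 91.9% of mRNA peaks lay in exons of at least 1000 bases against 22.8% of the reference. The contrast was widest in CDS, where 92.0% of peaks and 7.47% of reference features lay in such exons, with median exon lengths of 2485 and 160 bases. Among all mRNA peaks 72.0% lay in the last exon of the transcript, against 25.5% of reference features. In CDS that share was 58.0% against 6.69%, and it includes the single long exon in which zinc-finger proteins encode their finger arrays. Peaks had a median length of 1327 bases in mRNA exons and 1343 in noncoding exons, against 232 and 409.5 in reference features. In CDS the median lengths were 1589 and 202 bases. A long peak needs a long exon to be counted as exonic, so these exon contrasts cannot be told apart from the length of the intervals. Noncoding peaks lay mostly in transcripts of 1 exon (61.9%, against 67.9% of the reference).

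The noncoding set is a mixture of annotation classes. It holds 88 peaks in processed pseudogenes (copies of mRNAs inserted back into the genome), 61 in genes of the class TEC (transcribed regions not yet verified), 37 in long intergenic RNAs and 33 in antisense RNAs. The other 46 lie in 12 transcribed processed pseudogenes, 11 processed transcripts, 8 transcribed unprocessed and 6 unprocessed pseudogenes, 4 sense intronic RNAs, 4 RNAs from bidirectional promoters and 1 further pseudogene. Of the 265, 112 also overlap another gene on the same strand, often its intron, so their reads cannot be told apart from those of the larger gene's precursor. Of the mRNA peaks, 48 overlap another gene, and 13 mRNA and 7 noncoding peaks have under 50% of their bases in the class that named them. Reads of pseudogenes and of zinc-finger genes with near-identical copies can also be split between copies, and their single values are uncertain. Most genes held 1 peak (456), 30 held 2 and 3 held 3 (Gm10033, Gm10323 and Zfp780b). Unc13b held 5 and Kcnq1ot1 held 6. Many genes of 1 family, with symbols starting Pcdhga or Pcdhgb, also held a peak, 2 in Pcdhga10 and 1 in each other. Peaks of different genes are therefore not all unrelated.

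Total counts were 19024702 to 21832539 in WT, 15812517 and 18738499 in SAFB DKO and 7050832 and 8353603 in EZH2 KO. Exonic features of Ezh2 summed to 93.1 to 114 normalised counts (CPM, the count scaled to a common library size) in WT and 0 to 0.601 in EZH2 KO, and those of Safb and Safb2 summed to 57.2 to 85.9 and 62.8 to 110.5 in WT and to no more than 1.51 in SAFB DKO, so each knockout lacked its target. In EZH2 KO Safb2 stood at 176 and 211 CPM, above all WT libraries, and Safb at 49.9 and 44.5, below them; their part in the values of EZH2 KO was not tested. The column names of the EZH2 KO libraries follow another pattern, which may mark another sequencing run, and genotype and run cannot be told apart. All 10 embryonic stem cell markers had features, summing to 1939 to 2007 CPM in WT, 1999.7 to 2155 in EZH2 KO and 2185 to 2285 in SAFB DKO, but single markers differed in direction. Pou5f1 had 127 to 148 CPM in WT, 60.5 to 81.2 in EZH2 KO and 222 to 237 in SAFB DKO, whereas Zfp42 had 68.0 to 86.4, 149 to 171 and 29.4 to 33.5. Trophoblast markers (4 of 5 with a feature) summed to 5.98 to 6.58 CPM in WT, 12.0 to 12.4 in EZH2 KO and 4.20 to 6.07 in SAFB DKO. Those of fibroblasts (3 of 8) and endoderm (3 of 6) summed to at most 12.0 CPM in any library. Neural markers summed to 218 to 299, 150.3 to 168 and 119 to 125 CPM, mostly from Nes; the part of other cell types in the results below was not tested.

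Exon peaks took several-fold less of the library without SAFB and SAFB2 and more of it without EZH2. The 271 mRNA peaks held 1.08%, 1.09% and 1.14% of counts in WT, 1.79% and 1.98% in EZH2 KO, against 0.202% and 0.262% in SAFB DKO. Every SAFB DKO library was below every WT library and every EZH2 KO library above. The means were 1.11% ± 0.0329 (SD, n = 3), 1.89% ± 0.139 (n = 2) and 0.232% ± 0.0425 (n = 2), so WT held 4.76 times the share of SAFB DKO, and EZH2 KO held 1.71 times that of WT.

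Noncoding exon peaks held 3.63%, 3.60% and 2.88% of counts in WT, 4.30% and 5.89% in EZH2 KO, against 0.321% and 0.341% in SAFB DKO. The ratio of WT to SAFB DKO was 10.2 and that of EZH2 KO to WT was 1.51. One peak, in Malat1, made up most of this, with 3.17%, 3.13% and 2.45% of counts in WT, 3.52% and 5.08% in EZH2 KO, against 0.263% and 0.271% in SAFB DKO. The other 264 noncoding peaks held 0.461%, 0.466% and 0.432%, then 0.785% and 0.813%, then 0.0579% and 0.0699%. The groups did not overlap with or without Malat1. Against WT each difference had an exact two-sided permutation p = 0.1, the smallest that 10 splits of 3 against 2 libraries allow (adjusted over 12 such tests, 0.171), and between the knockouts the exact permutation p was 0.333, the least that 6 splits allow. The 95% exact Clopper-Pearson interval of a single share was narrow, at 0.200% to 0.204% for mRNA peaks in the first SAFB DKO clone; it covers counting error only.

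**Figure D2:**
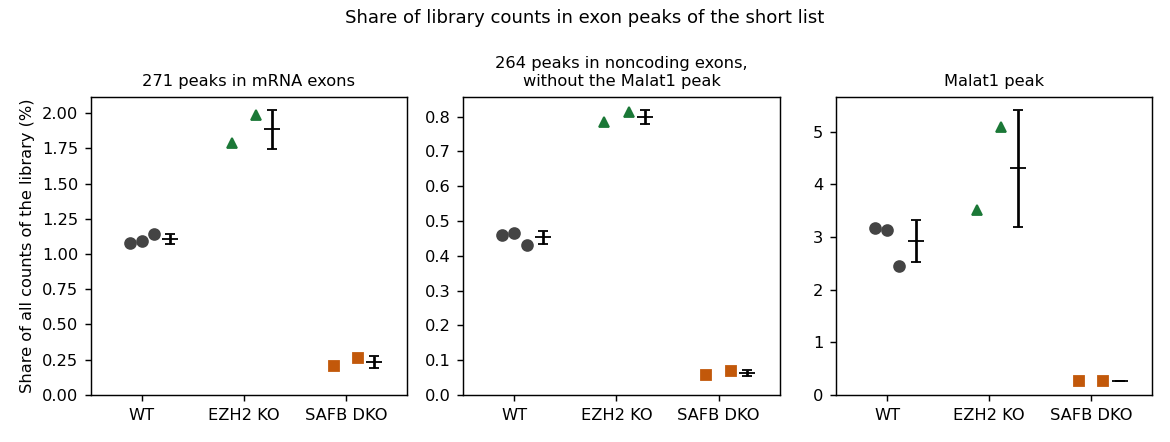
Share of all counts of a library (percent) in mRNA exon peaks, in noncoding exon peaks without Malat1 and in the Malat1 peak, with 1 point per library and the mean with SD beside each group (WT n = 3, EZH2 KO n = 2, SAFB DKO n = 2). In each panel the SAFB DKO libraries lie lowest and the EZH2 KO libraries highest, for mRNA exons at 0.202% and 0.262% against 1.79% and 1.98%.

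Loss of SAFB and SAFB2 against WT compares the precipitated RNA of cells with and without them. Peaks of the short list were chosen on these WT libraries (each had at least 93 pooled WT reads), so this contrast favours falls, and the counts below describe how far the falls reach. Of the mRNA exon peaks, 257 of 271 fell and 0 rose in edgeR's quasi-likelihood test (0 rose at an unadjusted p under 0.05 too), where 19.7% of all tested features were called, 17.4% lower and 2.26% higher. The median log2 fold change was -2.56, with 10th and 90th percentiles of -3.64 and -1.57; the median over all tested features was -0.17 and over reference mRNA exons 0.34. By class 153 of 162 CDS peaks (median -2.54), 99 of 104 in 3′ UTRs (-2.64) and 5 of 5 in 5′ UTRs (-3.32) fell. Reference CDS, 3′ UTR and 5′ UTR features had medians of 0.36, 0.27 and 0.19. In 267 of the 271 peaks both SAFB DKO libraries lay below all WT libraries.

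**Figure D3:**
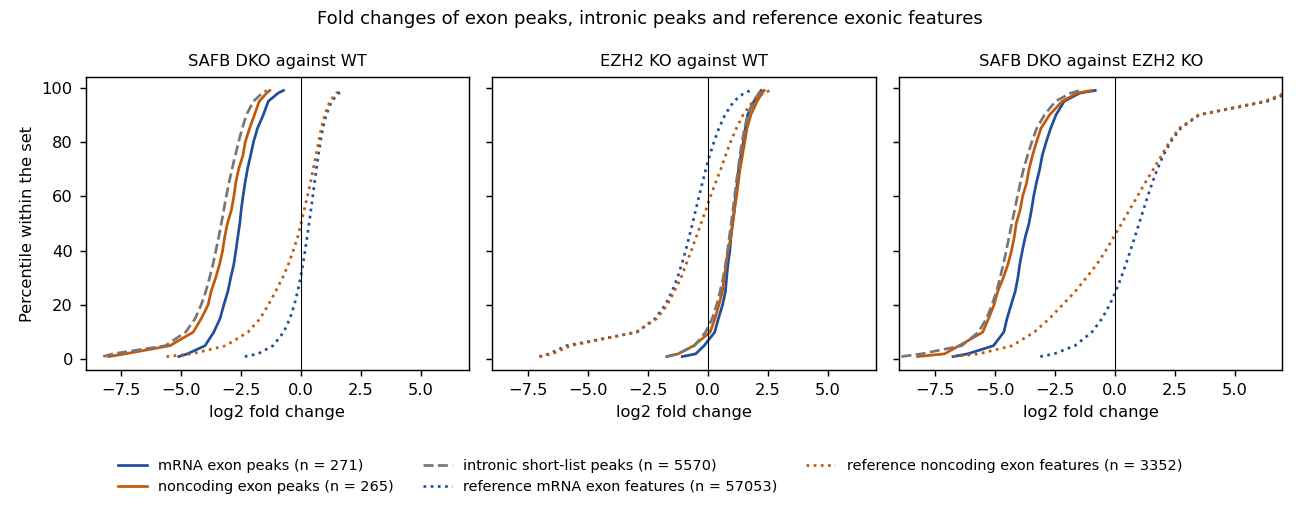
Cumulative distribution of log2 fold changes (x axis) by percentile within the set (y axis) for mRNA exon peaks (n = 271), noncoding exon peaks (n = 265), intronic short-list peaks (n = 5570) and reference exonic features (57053 in mRNA exons, 3352 in noncoding exons) in the 3 comparisons. In SAFB DKO against WT the medians were -2.56, -3.07 and -3.33 for the listed sets and 0.34 and 0.00 for the reference sets.

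The strongest CDS peaks lie in very long coding exons. The peak named after Gm38394 (chr1:133656791-133660102) sits in a first exon of 5974 bases that is also inside Zbed6 and Zc3h11a, so its host cannot be settled. It had 1023, 1012 and 1185 CPM in WT, 2123 and 2941 in EZH2 KO, against 147 and 171 in SAFB DKO. It fell by 2.75 on the log2 scale (SE 0.15, edgeR adjusted p = 5.2e-09). Both SAFB DKO values lay below every other library by several-fold.

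Rtn4 encodes a reticulon that shapes the endoplasmic reticulum, and its peak (chr11:29706508-29708778) fills exon 3 of 9, a coding exon of 2361 bases. It had 680.0, 702 and 753 CPM in WT, 1031 and 1368 in EZH2 KO, against 143 and 138 in SAFB DKO. It fell by 2.34 (SE 0.14, edgeR adjusted p = 9.5e-09), with groups that did not overlap. A small peak in the 3′ UTR of the same gene had 1.56, 1.69 and 1.93 CPM in WT and 0.730 and 0.108 in SAFB DKO, and fell by 1.98 (adjusted p = 0.038).

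Naca encodes the alpha subunit of the nascent polypeptide-associated complex, and its peak (chr10:128041410-128044851) lies in a coding exon of 5916 bases that belongs to the long isoform known from muscle. It had 678, 543 and 594 CPM in WT, 867 and 896 in EZH2 KO, against 57.1 and 55.1 in SAFB DKO. It fell by 3.43 (SE 0.14, edgeR adjusted p = 2.9e-09), the largest fall of the 5 strongest CDS peaks.

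Macf1 encodes a giant protein that links actin to microtubules. Its main peak (chr4:123471004-123476175, exon 36 of 98 of the annotated transcript) had 339.8, 308 and 383 CPM in WT, 488 and 634 in EZH2 KO, against 51.1 and 62.3 in SAFB DKO. It fell by 2.6 (SE 0.17, edgeR adjusted p = 1.6e-08), and a further coding peak (chr4:123526280-123527543) fell by 3.10. Etl4 (chr2:20805812-20807386) had 429.7, 423 and 413 CPM in WT, 751 and 869 in EZH2 KO, against 56.7 and 86.9 in SAFB DKO, and it fell by 2.56 (SE 0.17, edgeR adjusted p = 2.2e-08). For both genes the SAFB DKO clones were lowest and the EZH2 KO clones highest, without overlap.

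**Figure D4:**
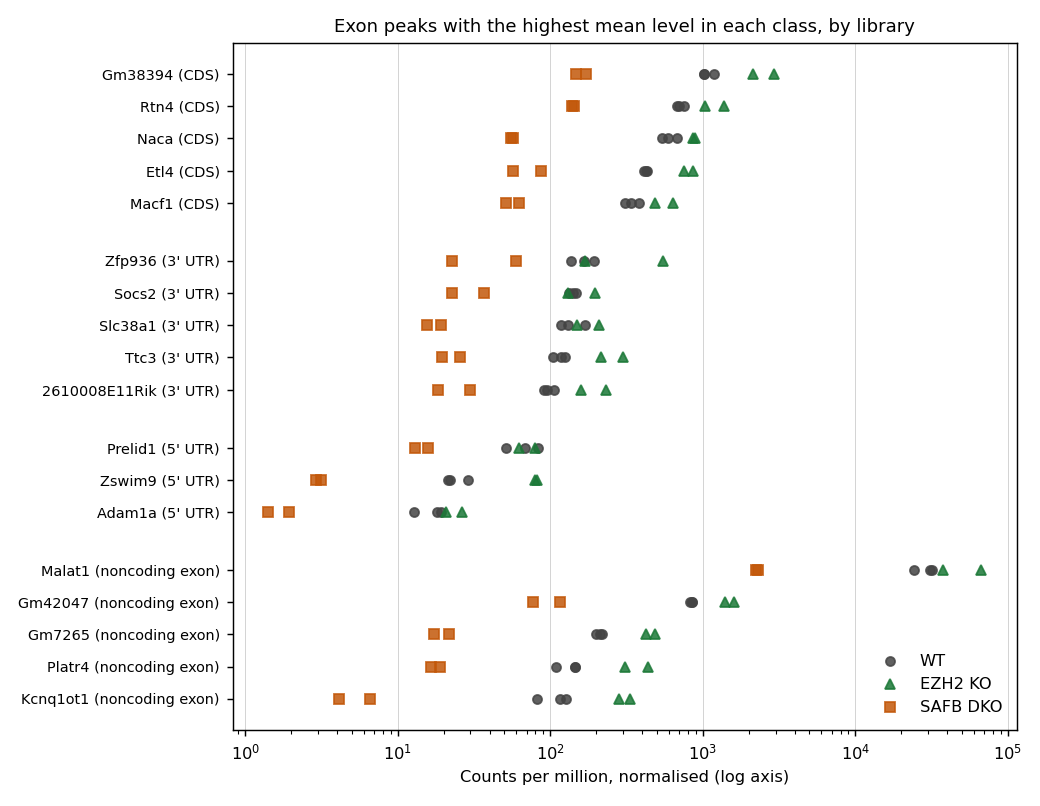
Normalised CPM (log axis) in each library for the exon peaks with the highest mean level in each class (5 in CDS, 3′ UTR and noncoding exon, 3 in 5′ UTR), circles WT, triangles EZH2 KO, squares SAFB DKO. The SAFB DKO libraries lie lowest for every peak shown, whereas the EZH2 KO libraries overlap WT for Zfp936, Socs2, Slc38a1 and Prelid1.

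Levels in 3′ UTRs were lower. Ttc3, a ubiquitin ligase gene, had 104, 126 and 118 CPM in WT, 215 and 298 in EZH2 KO, against 19.5 and 25.6 in SAFB DKO at chr16:94394457-94397063 in its last exon. It fell by 2.36 (SE 0.19, edgeR adjusted p = 1.5e-07). Slc38a1, which encodes an amino acid transporter (chr15:96612102-96616236), had 131, 117 and 169.6 CPM in WT and 15.5 and 19.2 in SAFB DKO, and fell by 3.01 (SE 0.22, edgeR adjusted p = 4.5e-08). Its EZH2 KO values of 149 and 209 overlapped WT. Socs2, a suppressor of cytokine signalling (chr10:95411525-95413288), went the same way, from 133, 142 and 147 CPM to 22.8 and 37.0, a fall of 2.24 (SE 0.22, edgeR adjusted p = 1.2e-06), with 131 and 197 in EZH2 KO. 2610008E11Rik (chr10:79062856-79068026) had 95.5, 91.6 and 106 CPM in WT, 158 and 232 in EZH2 KO, against 18.3 and 29.9 in SAFB DKO, and it fell by 2.02 (SE 0.22, edgeR adjusted p = 3.5e-06).

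The 3′ UTR peak with the highest mean, in the zinc-finger gene Zfp936 (chr7:43189415-43192049), differed widely between clones of a group. It had 136, 165 and 195 CPM in WT, 169.6 and 551 in EZH2 KO, against 22.6 and 59.5 in SAFB DKO, and it fell by 2.01 (SE 0.40, edgeR adjusted p = 0.0016). The EZH2 KO clones differed more from each other than clone 12 did from WT.

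All 5 peaks in 5′ UTRs fell. Prelid1, which encodes a mitochondrial lipid transfer protein (chr13:55319842-55321617), had 67.8, 51.2 and 83.3 CPM in WT, 62.5 and 79.6 in EZH2 KO, against 12.9 and 15.8 in SAFB DKO, a fall of 2.23 (SE 0.23, edgeR adjusted p = 1.7e-06). Zswim9 (chr7:13276569-13278222) fell by 2.99 from 28.9, 22.0 and 21.2 CPM to 2.92 and 3.12, and stood at 79.5 and 81.8 in EZH2 KO. Adam1a, a single-exon gene with a peak in both its 5′ UTR and its CDS, fell by 3.32 and 3.02 in them. Meis2, a homeodomain transcription factor gene (chr2:116064687-116065734), had 1.70, 2.07 and 2.14 CPM in WT, 8.27 and 9.59 in EZH2 KO, against 0 and 0.161 in SAFB DKO, and fell by 4.58 (edgeR adjusted p = 1.2e-04).

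Some mRNA peaks were almost lost. The CDS peak of Adam21, a membrane metalloprotease gene, had 2.53, 1.98 and 3.08 CPM in WT, 5.26 and 2.83 in EZH2 KO and no count in either SAFB DKO library, which puts it at least 34.1-fold lower than in WT (floor of 3 counts over the group). It was the only mRNA peak without a count there. A peak in the 3′ UTR of Ermp1, which encodes a metallopeptidase of the endoplasmic reticulum (chr19:29608288-29608859), had 5.06, 4.14 and 4.49 CPM in WT and 0.0912 and 0.0538 in SAFB DKO, and fell by 5.81. Uvssa, a gene of DNA repair, had 33.4, 27.7 and 30.4 CPM in WT and 1.51 and 3.55 in SAFB DKO at its 3′ UTR, and fell by 3.61. The 3′ UTR peak of Fech, the last enzyme of haem synthesis, fell by 5.22, and the CDS peak of Hsfy2 fell by 5.06.

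The smallest falls among called mRNA peaks with separate groups were in CDS of Mprip and Nin and in 3′ UTRs of Nrg4 and Zfp992. Mprip, which encodes a regulator of myosin phosphatase, had 71.0, 59.5 and 77.7 CPM in WT, 166 and 187 in EZH2 KO, against 36.9 and 32.7 in SAFB DKO, and fell by 1.00 (SE 0.17, edgeR adjusted p = 3.8e-04). Nin, the gene of the centrosome protein ninein, fell by 0.83 (adjusted p = 0.011), but that call was lost without WT replicate 1 (-0.81) or SAFB DKO replicate 2 (-0.62) and with DESeq2 (-0.58). Nrg4 (-1.33) lost it without SAFB DKO replicate 2 (-1.05), and Zfp992 (-1.34) lost it without any of the 3 WT libraries or SAFB DKO replicate 1 (-1.54 to -0.79), under each other scaling and with DESeq2 (-1.25 to -1.07).

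In mRNA exons 14 peaks were not called in SAFB DKO against WT. Those in 3′ UTRs were Fut9, Trps1, Zfp942, Zfp981 and Zfp990 (log2 fold changes -1.10, -1.39, -0.90, -1.03 and -1.24). Those in CDS were Mterf1b, Prdm9, Tbr1, Zfp960, Zfp97, Zfp976 (-1.14, -0.93, -1.85, -1.24, -1.43 and -1.76), Samd9l, Cdk13 and Usp29. Usp29, a ubiquitin peptidase gene beside the imprinted Peg3, was the only exonic peak with a positive value. It had 3.72, 3.20 and 3.24 CPM in WT and 4.33 and 3.34 in SAFB DKO, overlapping ranges (0.18, SE 0.31, edgeR adjusted p = 0.78). Cdk13, a kinase gene, had 1.33, 2.16 and 1.31 CPM in WT and 1.32 and 1.67 in SAFB DKO (-0.10, SE 0.63), and its peak touched only a short exon of 78 bases. Samd9l had 3.63, 5.55 and 5.12 CPM in WT and 1.96 and 4.84 in SAFB DKO (-0.50, SE 0.34, adjusted p = 0.38), and without SAFB DKO replicate 2 it was called lower (-1.31).

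Noncoding exon peaks fell almost as a class in SAFB DKO. Of 265 peaks 258 fell and 0 rose, with a median of -3.07 (10th and 90th percentiles -4.50 and -1.94), against 0.00 in reference noncoding exons. All 265 had both SAFB DKO libraries below all WT libraries. Every TEC peak fell (61 of 61, median -3.54), as did 85 of 88 in processed pseudogenes (-2.82), 35 of 37 in long intergenic RNAs (-2.6) and 32 of 33 in antisense RNAs (-3.06). Peaks inside 2 or more genes had a median of -3.25 (111 of 112 fell) and those that overlap 1 gene only had -2.87 (147 of 153); the difference between them was not tested.

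Malat1 is an abundant nuclear RNA known for its place in nuclear speckles, and its peak (chr19:5800677-5802530) lies in a single exon of 6983 bases. It had 31763, 31024 and 24359 CPM in WT, 37303 and 66761 in EZH2 KO, against 2249.9 and 2304 in SAFB DKO. It fell by 3.67 (SE 0.19, edgeR adjusted p = 4.1e-09), with the SAFB DKO clones close together and far below WT.

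Gm42047, a long intergenic RNA (chr8:121836402-121837432, also inside Gm20388), had 849, 856 and 824 CPM in WT, 1401 and 1611 in EZH2 KO, against 77.4 and 117 in SAFB DKO, and fell by 3.12 (SE 0.16, edgeR adjusted p = 4.3e-09). Gm7265 (chr9:72692999-72694899) is a TEC gene inside Nedd4; it had 212, 218 and 199.8 CPM in WT and 17.2 and 21.7 in SAFB DKO and fell by 3.43 (SE 0.17, edgeR adjusted p = 3.1e-09). Platr4, a transcript named for its association with pluripotency (chr3:41488223-41489678), had 145, 145 and 108 CPM in WT, 310.0 and 439 in EZH2 KO, against 19.0 and 16.6 in SAFB DKO. It fell by 2.90 (SE 0.20, edgeR adjusted p = 2.9e-08), again without overlap.

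Kcnq1ot1, the long RNA antisense to Kcnq1 that silences imprinted neighbours in cis, held 6 peaks in its single exon of 93092 bases. The largest (chr7:143249217-143252755) had 128, 116 and 81.5 CPM in WT, 336 and 280.4 in EZH2 KO, against 4.15 and 6.57 in SAFB DKO, a fall of 4.34 (SE 0.25, edgeR adjusted p = 8.7e-09). All 6 fell, with log2 fold changes from -5.37 to -3.82. RNAs of the X-inactivation centre behaved alike in direction: the 2 peaks of Tsix, antisense to Xist, fell by 2.64 and 2.76, and that of Ftx fell by 3.24. The larger Tsix peak had 74.0, 68.0 and 81.9 CPM in WT, 118 and 147 in EZH2 KO, against 13.2 and 10.7 in SAFB DKO.

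Noncoding peaks of low level reached 0 in SAFB DKO. Gm42461, a TEC gene (chr5:49943264-49945358), had 4.37, 4.42 and 3.55 CPM in WT, 7.97 and 9.44 in EZH2 KO and no count in SAFB DKO, at least 55.5-fold below WT. The same held for Gm37363 (at least 44.9-fold), for 1 of the 2 peaks of the pseudogene Gm36298 (27.8), and for C79130 (26.0), Gm37964 (22.3) and Gm26648 (20.5). The smallest falls among called noncoding peaks with separate groups were in A530020G20Rik, Gm19040, 2310039L15Rik and Gm13136, and each of these calls was lost without SAFB DKO replicate 1. Those of Gm19040 and 2310039L15Rik were also lost when any WT library was left out, with DESeq2 size factors and with DESeq2. That of 2310039L15Rik was further lost without SAFB DKO replicate 2, under each other scaling and with no filter. A530020G20Rik also lost its call without WT replicate 1, and Gm13136 without WT replicate 3. The 7 noncoding peaks not called were E230001N04Rik (-0.95), Gm2824 (-2.18), Gm13135, Gm14127, Gm16299, Gm18393 and Gm8935.

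Loss of EZH2 against WT compares the precipitated RNA of cells with and without the antibody's named target. No mRNA exon peak fell in edgeR's test (1 at an unadjusted p under 0.05) and 165 of 271 rose, where 15.6% of all tested features were called, 7.5% higher and 8.07% lower. The median was 1.03 (10th and 90th percentiles 0.28 and 1.66), against -0.65 in reference mRNA exons and -0.21 over all tested features. In CDS 106 of 162 rose (median 1.07), in 3′ UTRs 57 of 104 (0.98) and in 5′ UTRs 2 of 5 (0.50). The count depended on the libraries: without WT replicate 1 it was 104, and without EZH2 KO clone 19 (replicate 2) 7 peaks were called lower. Clone 19 lay above clone 12 in 220 of the 271 peaks, by a median ratio of 1.39, and by over 2-fold in 69. Both clones lay above all WT libraries in 200. The smaller depth of these libraries and the spread between their clones move with this result, and their part in it was not tested.

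Among the 5 strongest CDS peaks Gm38394 rose by 1.24 (SE 0.13, edgeR adjusted p = 2.6e-05), Etl4 by 0.94 and Rtn4 by 0.75 (SE 0.12, adjusted p = 7.8e-04). Macf1 rose by 0.71 at its main peak and 1.17 at the other. Naca rose by 0.54 (SE 0.12, adjusted p = 0.0063), a call lost without WT replicate 2 (0.48) and with library sizes as plain column totals (0.30). In 3′ UTRs Ttc3 (1.15) and 2610008E11Rik (1.00) rose, whereas Slc38a1 (0.37, adjusted p = 0.19) and Socs2 (0.22, adjusted p = 0.48) did not pass the test. Zfp936 (1.12, adjusted p = 0.048) rested on clone 19 alone, with -0.03 without it.

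The largest rises were in peaks of low WT level. Zkscan16, a zinc-finger gene, had 8.04, 5.93 and 8.56 CPM in WT, 42.2 and 40.6 in EZH2 KO, against 1.46 and 1.29 in SAFB DKO; it rose by 2.46 (SE 0.23, edgeR adjusted p = 1.3e-05). 2510009E07Rik rose by 2.42 and Meis2 by 2.18. Samd9l, which was not called in SAFB DKO, rose by 2.34 to 21 and 27.2 CPM (SE 0.32, edgeR adjusted p = 2.0e-04). Both EZH2 KO clones stood above every WT library in each of these genes.

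Unc13b, which encodes a protein that primes synaptic vesicles, held 5 CDS peaks, 4 of them in a single coding exon of 8367 bases (exon 10 of 41) and 1 in exon 2 of a transcript of 33 exons. The largest (chr4:43175142-43178446) had 31.8, 28.6 and 34.8 CPM in WT, 128 and 154 in EZH2 KO, against 9.26 and 10.4 in SAFB DKO. It rose by 2.15 in EZH2 KO (SE 0.17, edgeR adjusted p = 5.8e-06) and fell by 1.69 in SAFB DKO (SE 0.19, adjusted p = 4.6e-06). All 5 rose in EZH2 KO, by 1.68 to 2.15, and fell in SAFB DKO, with values from -3.02 to -1.42. The call of the smallest fall (edgeR adjusted p = 0.037) was lost when any WT or SAFB DKO library was left out. It was also lost under each other scaling, with no filter and with DESeq2. These 5 share transcripts and are not independent of each other.

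In noncoding exons 151 of 265 peaks rose in EZH2 KO and 4 fell, with a median of 1.04 against -0.29 in reference noncoding exons. Malat1 rose by 0.84 (SE 0.16, edgeR adjusted p = 0.0018), Gm42047 by 0.84, Gm7265 by 1.12 and Platr4 by 1.5. Of the 6 Kcnq1ot1 peaks 3 rose, by 1.45, 1.51 and 2.37, and the others had 0.05, 0.09 and 0.64. Clone 19 lay above clone 12 in 205 of the 265.

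The largest noncoding rise was in Gm26722, a long intergenic RNA, from 1.88, 3.44 and 3.60 CPM in WT to 26.0 and 32.4 (3.30, SE 0.35, edgeR adjusted p = 2.7e-05). E230001N04Rik rose by 2.6. The 2 peaks of the antisense RNA Gm17690 rose by 2.34 and 2.10, from 21, 17.9 and 15.1 CPM to 81.3 and 101 in the first. None of these EZH2 KO values overlapped WT.

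The 4 noncoding peaks that fell in EZH2 KO were Gm47664, Gm28192, Gm42445 and Gm1966. Gm47664 lies inside Elmo1 and had 44.1, 45.9 and 34.7 CPM in WT, 18.2 and 23.9 in EZH2 KO, against 2.37 and 1.78 in SAFB DKO; it fell by 0.98 (SE 0.22, edgeR adjusted p = 0.0077). Gm28192 fell by 1.72 and Gm42445 by 2.95, and Gm1966 had no count in EZH2 KO, at least 6.85-fold below WT, at 1.47 to 1.65 CPM there. No call survived every left-out library: the count was 0 when WT replicate 1 or 2 was left out, 1 when WT replicate 3 was, and 17 when EZH2 KO replicate 2 was.

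SAFB DKO against EZH2 KO compares groups whose reads did not set the cut of the short list. The WT libraries still enter the fit and its estimate of spread. The rule of the authors' filtered list is not given in the sources used here, so whether knockout libraries entered it cannot be told. This comparison also tests whether both knockouts moved a peak unequally, since their contrasts share the WT libraries. Of the mRNA exon peaks 265 of 271 fell, where 39.9% of all tested features were called, 23.3% lower and 16.6% higher, and the median was -3.59 against 1.01 in reference mRNA exons. Of the noncoding peaks 259 of 265 fell, with a median of -4.12 (-4.08 with peaks lacking counts set at their bound) against 0.28 in the reference. A fit on the 4 knockout libraries alone gave 251 and 241 falls. No exonic peak rose, and none did at an unadjusted p under 0.05. Rtn4 was lower in SAFB DKO by 3.09 on the log2 scale (SE 0.15, edgeR adjusted p = 3.8e-10), Naca by 3.97, Malat1 by 4.51 (SE 0.20, adjusted p = 2.2e-10) and the largest Kcnq1ot1 peak by 5.85.

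The 12 peaks not called in that comparison were Fut9, Cdk13, Rsph4a, Tbr1, Usp29 and Zfp97 in mRNA exons and Gm16211 (1 of its 2 peaks), Gm1966, Gm28192, Gm29895, Gm42445 and Gm8000 in noncoding exons. Cdk13 was the only mRNA peak with a positive value (1.26, SE 0.87, edgeR adjusted p = 0.26). The smallest falls among called peaks with separate groups were in Eif5b (-1.95), Catip, Zfp850 (-1.74) and Nova1 (-1.30, adjusted p = 0.049) among mRNAs, and in Gm42972 (-1.95), 1700055D18Rik (-1.70), Gm44829 (-1.68) and Gm16211 (-1.54) among noncoding RNAs. Each of these 8 calls was lost without at least 1 library: without SAFB DKO replicate 1 for Catip, Zfp850, Nova1, Gm42972, 1700055D18Rik and Gm44829, without EZH2 KO replicate 2 for Eif5b, Zfp850, Nova1 and Gm16211, and for Eif5b, Nova1 and 1700055D18Rik without further ones. All but that of Catip were also lost in the fit on the 4 knockout libraries, and those of Nova1 and 1700055D18Rik under every other scaling, with DESeq2 and with no filter.

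Exon peaks were set against the intronic peaks of the same list within each library, a measure free of library scaling. The median log2 CPM of mRNA exon peaks exceeded that of intronic peaks by 0.97, 1.03 and 0.97 in WT, 0.91 and 0.95 in EZH2 KO, against 1.27 and 1.58 in SAFB DKO. Both SAFB DKO libraries lay above the other 5. The mean difference from WT was 0.44 in SAFB DKO and -0.06 in EZH2 KO (exact two-sided permutation p = 0.1 for each, the smallest of 10 splits, adjusted 0.171). Noncoding exon peaks exceeded intronic peaks by 0.43, 0.33 and 0.36 in WT, 0.25 and 0.48 in EZH2 KO, against 0.60 and 0.67 in SAFB DKO. That is a difference of 0.26 in SAFB DKO (exact permutation p = 0.1) and -0.01 in EZH2 KO (exact permutation p = 1). In mRNA exons the difference in SAFB DKO was larger than the range between WT libraries, and the design cannot reach an exact p under 0.1. Of the intronic peaks 5470 of 5570 fell against WT (median -3.33), and 2770 rose in EZH2 KO (0.97).

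A peak was also set against the other exonic features of its gene, in a test of unequal change within the gene (diffSpliceDGE, log2 change of the peak relative to the gene). The gene's change includes the peak itself and any other listed peak of the gene. A peak holding most of its gene's reads can therefore deviate little, which limits a comparison of the classes. The test could be run for 265 of the 536 peaks. In SAFB DKO against WT 61 fell relative to their gene and 0 rose, where 0.375% of 55204 features fell and 0.69% rose. They were 37 of 93 in 3′ UTRs (median -1.19), 14 of 94 in CDS (-0.18), 2 of 3 in 5′ UTRs and 8 of 75 in noncoding exons (-0.20). Leaving out SAFB DKO replicate 1 or 2 gave 34 or 39 such peaks, and leaving out WT replicate 1 or 2 gave 37 or 40. In SAFB DKO against EZH2 KO 81 fell relative to their gene and 0 rose (background 2.17% and 9.52%). In EZH2 KO against WT 9 rose and 0 fell (0.35% and 2.76%), and leaving out WT replicate 3, WT replicate 1 or EZH2 KO replicate 2 gave 4, 5 or 16 rises.

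Eif2d, which encodes a translation initiation factor, shows the pattern in a 3′ UTR (chr1:131179572-131180293). Its peak had 0.378, 0.299 and 0.357 reads per read in the other exonic features of the gene in WT, 1.44 and 1.16 in EZH2 KO, against 0.0139 and 0.0244 in SAFB DKO. Relative to the gene it fell by 3.80 in SAFB DKO (diffSpliceDGE adjusted p = 1.1e-13), and in EZH2 KO it rose by 1.14 (adjusted p = 0.0068). In Ermp1 the first 3′ UTR peak had ratios of 0.328, 0.247 and 0.226 in WT, 0.468 and 0.878 in EZH2 KO, against 0.00375 and 0.00200 in SAFB DKO, a relative fall of 5.88 (adjusted p = 4.3e-08). Fbxl17, an F-box gene, fell by 4.39 relative to its gene, from 0.242, 0.268 and 0.284 to 0.00621 and 0.0120. Fech fell by 4.90. In each of these genes the 3 groups did not overlap.

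**Figure D5:**
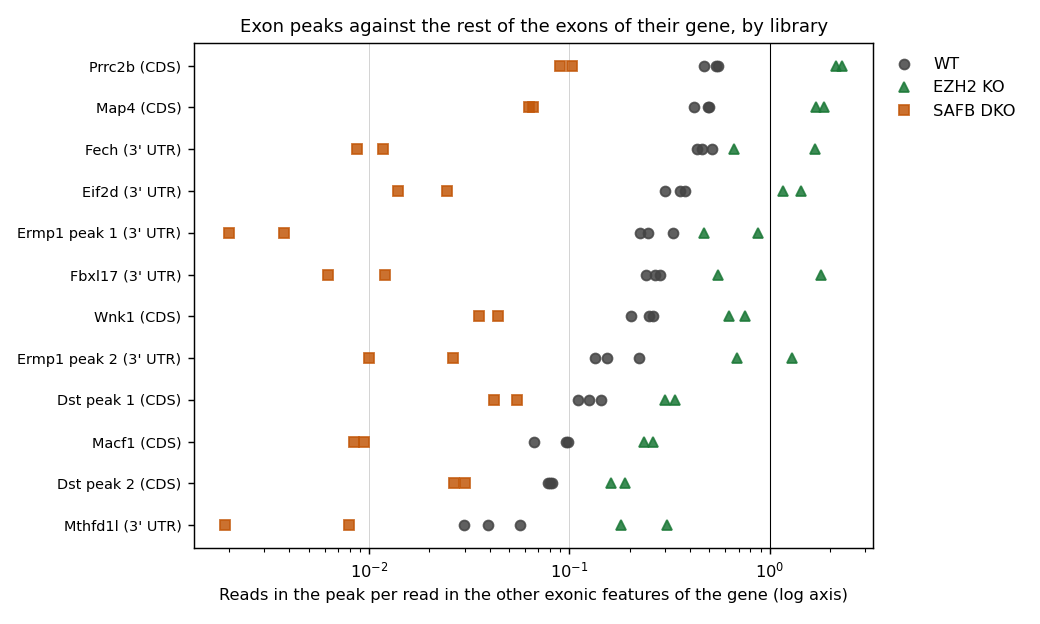
Reads in the peak per read in the other exonic features of its gene (log axis) in each library, for the 9 peaks that rose within their gene in EZH2 KO and for those of Ermp1 (peak 1), Fbxl17 and Fech. The 3 groups do not overlap in any peak shown; for Prrc2b they lie at 0.472 to 0.554 in WT, 2.14 and 2.30 in EZH2 KO, against 0.0899 and 0.103 in SAFB DKO.

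The 9 peaks that rose within their gene in EZH2 KO were all in mRNAs: 2 in Dst, and 1 each in Map4, Prrc2b, Macf1, Wnk1, Eif2d, Ermp1 and Mthfd1l. Dst encodes a cytoskeletal linker, Map4 a microtubule-associated protein, Wnk1 a kinase of ion transport and Mthfd1l a mitochondrial folate enzyme. Map4 (coding, chr9:110051992-110053778) had ratios of 0.493, 0.498 and 0.417 in WT, 1.86 and 1.69 in EZH2 KO, against 0.0661 and 0.0628 in SAFB DKO. It rose by 1.00 relative to the gene in EZH2 KO (diffSpliceDGE adjusted p = 0.0012) and fell by 2.40 in SAFB DKO (adjusted p = 1.1e-13). Prrc2b rose by 1.00 (adjusted p = 1.2e-04) and fell by 1.96, Wnk1 rose by 1.07 and fell by 2.32, and the second Macf1 peak rose by 1.04 and fell by 2.81. All 9 also fell relative to their gene in SAFB DKO.

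Some of the strongest CDS peaks hold most of the exonic reads of their gene in every library. The Rtn4 peak had 10.3, 10.3 and 11.3 reads per other exonic read in WT, 28 and 40.3 in EZH2 KO, against 1.51 and 1.37 in SAFB DKO. Its change relative to the gene, which includes the peak, was -0.63 in SAFB DKO (diffSpliceDGE adjusted p = 0.24). Naca had 15.1, 12.9 and 14.7, then 58.2 and 30.6, then 1.20 and 1.30 (-0.75, adjusted p = 0.078). Neither passed the test although the ratios of the groups did not overlap.

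The host genes were also counted by lists of symbols, which cover a theme only in part. Zinc-finger genes (symbols starting Zfp, Zbtb, Zscan or Zkscan), most of them DNA-binding proteins with a long last coding exon, held 63 of the 271 mRNA peaks (23.2%, 55 genes), against 1.88% of reference mRNA exon features. Those shares compare unlike intervals, since 69.6% of the reference features and 11.8% of the mRNA peaks lie in internal exons. Of the 63, 57 fell in SAFB DKO against WT (median -2.34, against -0.41 for reference features of the list), 41 rose in EZH2 KO (1.15 against 0.28) and 62 fell in SAFB DKO against EZH2 KO (-3.48 against -0.55). Of the mRNA peaks as a whole the median was -2.56 against WT, and 6 of the 14 uncalled mRNA peaks are theirs (Zfp942, Zfp981, Zfp990, Zfp960, Zfp97 and Zfp976).

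A list of cytoskeleton, centrosome and trafficking names (symbols starting Golg, Cep, Cenp, Kif, Akap, Ank, Map1, Map2, Map4, Macf1, Dst, Rtn, Ahnak, Nin or Pcnt) held 14 mRNA peaks, 5.17% against 3.04% of reference mRNA exon features. It includes Rtn4, Macf1, Dst, Map4 and Nin, takes in Ankrd31 by its first letters alone, and misses Mprip. All 14 fell in SAFB DKO against WT (median -2.45, against 0.06 for reference features of the list), where 94.8% of all mRNA exon peaks fell, and 12 rose in EZH2 KO. The prefixes also matched 1 noncoding peak, in Cep112it, which fell by 4.26. A list of RNA-binding and splicing names held 4 mRNA peaks, in Ddx39, Rbm12b1, Rbm12b2 and Rbmx, or 1.48% against 1.20% of reference mRNA exon features. All 4 fell, with a median of -2.68, where that of all mRNA exon peaks was -2.56. The largest of these falls was in Rbmx. Rbmx, which encodes an RNA-binding protein, had 45.8, 48.7 and 44.7 CPM in WT, 77.0 and 105 in EZH2 KO, against 2.74 and 4.41 in SAFB DKO at its 3′ UTR, a fall of 3.70 (SE 0.25, edgeR adjusted p = 2.4e-08). A list of named long noncoding RNAs held 10 noncoding peaks, in Malat1, Kcnq1ot1, Tsix and Ftx, or 3.77% against 3.49% of the reference. All 10 fell (median -4.03, against -0.36 for reference noncoding features of the list), where 97.4% of all noncoding exon peaks fell, and 5 rose in EZH2 KO. Of these 10, 6 lie in the single exon of Kcnq1ot1 and are not independent of each other, so that RNA mainly sets the median. The median over all noncoding exon peaks was -3.07. No peak matched the chromatin prefixes (Kmt2, Chd, Arid, Setd, Nsd, Smarc, Kdm, Ash1l, Brd, Atrx, Tet, Dnmt, Ezh, Suz12, Eed and Jarid2), which miss chromatin genes with a peak such as Prdm9 and Mbd5. The lists describe the host genes and carry no test.

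The short list ends between 93 and 92 pooled WT reads. Just inside lie exonic peaks of Gm27046 (94 reads), Gm26648 and Mthfd1l (95), Gm1966 (98), and Cdk13 and Gm2824 (100). Just outside lie Gm43058, Gm11532 and Gm3148 (92), Fam84b (90), and Gm7669 and Gm15902 (89). Their log2 fold changes in SAFB DKO against WT were -2.41 in Gm27046, -2.43 in Mthfd1l, -2.90 in Gm1966, -0.10 in Cdk13 and -2.18 in Gm2824 inside (Gm26648 had no count in SAFB DKO), and -4.71, -3.22, -1.73, -0.10, -2.52 and -4.13 in the order given outside. Of 1118 exonic peaks of the filtered list outside the short list, 533 passed the filter on low counts.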

How the data were processed

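RNA precipitated with an EZH2 antibody was measured in 7 libraries (WT 3, EZH2 KO 2, SAFB DKO 2). The deposited values are raw read counts for each interval, which per the file headers the authors made with featureCounts 2.0.3, counting the reverse strand on mm10; the aligner and peak caller are not given in the sources used here. Another 3 value columns belong to no sample and were not used. Both SAFB DKO libraries carry the same replicate number in the labels and were numbered in accession order.

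Features were classed with GENCODE M21, and the sequences are from its transcripts; an exon number is that of the transcript that holds most of the peak. The members, lists and motifs were chosen with earlier results of these data known. Levels are CPM on normalised library sizes. The 7 libraries entered 1 edgeR 4.0.16 quasi-likelihood fit by group (R 4.3.3, limma 3.58.1, filterByExpr), with column totals scaled by TMM factors from tested features outside the filtered list, and p-values were adjusted by Benjamini-Hochberg over all tested features (threshold 0.05; "rose" and "fell" are kept for calls). Changes within a gene used diffSpliceDGE over features of 1 gene, and library values exact permutation tests (scipy 1.17.1), with 0.5 added to counts before logs. Named peaks were those with the highest mean CPM in each class (5, or 3 in 5′ UTRs), the 4 lowest and 4 highest called fold changes per comparison among peaks whose groups do not overlap (likewise within a gene, without that condition), any peak that rose in SAFB DKO (none did), and genes with 4 or more peaks. The other peaks given were list members, uncalled peaks or peaks chosen after their values were seen (among them Map4, Prrc2b, Dst and Usp29). Fixed floors are 3 counts over the group. Alternatives are other scalings, filters, DESeq2 1.42.0, left-out libraries, a stricter exon share and a replicate block. Replicate numbers shared by WT and EZH2 KO come with no statement in the labels that they pair the samples, so the fit has no block. One list of host genes is not reported here.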

Additional observations from a re-analysis of the deposited data

How the results depend on the processing

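Fold changes of the named peaks kept direction and call in 2917 results across the alternatives, were no longer called in 176, became called in 22 and reversed in 2, and 95 medians of exonic sets kept direction and moved little. Both reversals were in EZH2 KO against WT, where Zfp936 ranged from -0.027 without EZH2 KO replicate 2 to 1.67 without replicate 1, and Gm36298 from -0.032 to 2.39. Under other scalings the median over all tested features shifted by up to 0.25 in SAFB DKO against WT (DESeq2 size factors). With column totals it shifted by -0.25 in EZH2 KO against WT and 0.47 between the knockouts. These shifts were less than the exon medians. Filters and left-out libraries moved that median further. For the loss of EZH2 it became positive (0.10, a shift of 0.31) when features needed a mean count of 50. It shifted by -0.51 when no filter was used, and by -0.59 when EZH2 KO replicate 2 was left out. Using no filter shifted SAFB DKO against WT by -0.35. Leaving out EZH2 KO replicate 2 shifted the comparison of the knockouts by 0.56.

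Requiring 80% of bases in the class left 159 mRNA and 140 noncoding falls in SAFB DKO against WT, 166 and 141 against EZH2 KO, and 104 mRNA and 73 noncoding rises with 2 noncoding falls in EZH2 KO against WT; it tests fewer peaks (170 and 145). The level relative to introns was then 0.61 (mRNA) and 0.50 (noncoding) in SAFB DKO against WT, 0.045 in mRNA exons in EZH2 KO against WT (reversed; the cause was not tested) and 0.51 in noncoding exons between the knockouts. Noncoding peaks of 1 gene only, an alternative chosen after seeing the data, gave 147 and 148 falls in SAFB DKO and 75 rises with 2 falls in EZH2 KO. Noncoding falls in EZH2 KO were 7 with column totals and 2 when features needed a mean count of 50, a filter that also gave 1 rise within genes in SAFB DKO against WT. Without Malat1 the log2 ratio of noncoding shares was -2.82 against WT and -3.64 against EZH2 KO.

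Leaving out each library in turn gave 231 to 265 mRNA and 236 to 265 noncoding falls in SAFB DKO against WT. EZH2 KO against WT gave 104 to 194 rises and 0 to 7 falls in mRNA exons, and 104 to 157 rises and 0 to 17 falls in noncoding exons. SAFB DKO against EZH2 KO gave 252 to 263 falls and 0 to 2 rises, and 248 to 261 falls and 0 to 1 rises. Within genes the ranges were 34 to 81 falls and 0 to 1 rises, then 4 to 16 rises and 0 to 6 falls in EZH2 KO, then 57 to 85 falls and 0 to 4 rises between the knockouts. Log2 ratios of shares were -2.45 to -2.08 and -3.45 to -3.29 against WT, 0.69 to 0.84 and 0.35 to 0.81 in EZH2 KO, and -3.22 to -2.85 and -4.16 to -3.70 between the knockouts (mRNA, noncoding). Relative to introns they were 0.28 to 0.59 and 0.23 to 0.30 against WT, 0.34 to 0.65 and 0.15 to 0.39 between the knockouts, and in EZH2 KO -0.08 to -0.04 and -0.13 to 0.11, the last reversing without EZH2 KO replicate 1 (0.11) and WT replicate 1 (0.02).

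With the replicate number as a block, EZH2 KO against WT gave 164 rises and 0 falls in mRNA exons and 139 rises and 4 falls in noncoding exons. Deviations of the same-numbered libraries correlated at 0.26 and 0.13, which 2 shared numbers cannot establish as pairing.

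EZH2 KO has the shallowest libraries (7050832 and 8353603 counts), and with 2 clones a group permutation tests between the knockouts cannot go below 0.333. SAFB DKO against WT is bounded by the choice of peaks on WT.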
